A study of Mus musculus with 9 samples.

Results

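A set of 10 genes widely used to recognise macrophages was followed through the maturation of megakaryocytes, the platelet-forming cells, in mouse cultures. The genes were Mrc1, Msr1, C1qa, C1qb, C1qc, Cd68, Mmp12, Adgre1, Cybb and Chil3, that is 10 of the 12393 genes with a probe set of their own on the array. All 15 probe sets assigned to exactly 1 of these genes were used, of 20380 such probe sets in all. The genes had been picked with their levels by stage already known, so those levels are given as a description and no test was made of them.

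The samples were primary mouse megakaryocytes at 4 named stages. MKP, MK3 and MK4 had 2 arrays each and MK6 had 3. Marrow or fetal liver cells had been grown with thrombopoietin, the cytokine that drives the lineage, and sorted by flow cytometry for high surface CD41 and by forward scatter, a measure of size. The numbers in the last 3 stage names match the culture days 3, 4 and 6 of the design, and no day is given for MKP. The labels name no strain, age or genotype, and do not say which of the source tissues each array came from. The cultures are asynchronous by the design's own account, so each stage is an enriched fraction. The arrays titled MK6, MK6 replicate1 and MK6 replicate2 are called MK6 replicates 1, 2 and 3. No label states that replicate arrays are from different cultures, so the p-values below rest on a spread among arrays that may be technical alone.

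Macrophages are phagocytes that take up dying cells, lipoproteins and microbes through scavenger and lectin receptors and digest them in lysosomes. They also make C1q, the recognition molecule of the classical complement pathway, and proteases that remodel the surrounding matrix. In marrow and fetal liver they sit among developing blood cells, so a culture started from either tissue can hold them. In RNA from a mixed population, fewer cells of a type and less of its RNA per cell cannot be told apart.

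Upstream sequences are shown for the genes on which the stage patterns below turn: C1qb and C1qc, which followed each other, Mrc1, which was highest at MK3, and Cd68 and Mmp12, which were high at MK6. RefSeq's table (GRCm38.p6) had windows for 7 of the 10 genes, 8 windows in all, and C1qa, Msr1 and Adgre1 had no entry. Each sequence is the 250 bases before the annotated start, 5′ to 3′ on the gene's strand. They lie at chr4:136886201-136886450 (minus strand) for C1qb, chr4:136892915-136893164 (minus) for C1qc, chr2:14229164-14229413 (plus) for Mrc1, chr11:69666171-69666420 (minus) for Cd68 and chr9:7347124-7347373 (plus) for 1 of the starts of Mmp12. Capitals mark GAGGAA or its complement TTCCTC, a core recognised by PU.1, the transcription factor of the myeloid lineage, and TGACTCA or TGAGTCA, the site of AP-1.
C1qb: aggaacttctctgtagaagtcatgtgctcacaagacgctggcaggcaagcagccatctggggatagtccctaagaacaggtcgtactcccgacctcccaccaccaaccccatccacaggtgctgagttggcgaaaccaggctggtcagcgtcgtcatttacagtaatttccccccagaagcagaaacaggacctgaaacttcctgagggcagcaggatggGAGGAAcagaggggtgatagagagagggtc
C1qc: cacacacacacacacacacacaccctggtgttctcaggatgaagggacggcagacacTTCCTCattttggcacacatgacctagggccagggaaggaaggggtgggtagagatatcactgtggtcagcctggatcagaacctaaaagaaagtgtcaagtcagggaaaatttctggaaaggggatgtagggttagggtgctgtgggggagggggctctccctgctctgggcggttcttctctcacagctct
Mrc1: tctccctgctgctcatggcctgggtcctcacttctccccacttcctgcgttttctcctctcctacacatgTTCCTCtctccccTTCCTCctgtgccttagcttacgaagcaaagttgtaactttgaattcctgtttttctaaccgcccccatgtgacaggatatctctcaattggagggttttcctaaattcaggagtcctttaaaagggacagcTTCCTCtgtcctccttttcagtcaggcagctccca
Cd68: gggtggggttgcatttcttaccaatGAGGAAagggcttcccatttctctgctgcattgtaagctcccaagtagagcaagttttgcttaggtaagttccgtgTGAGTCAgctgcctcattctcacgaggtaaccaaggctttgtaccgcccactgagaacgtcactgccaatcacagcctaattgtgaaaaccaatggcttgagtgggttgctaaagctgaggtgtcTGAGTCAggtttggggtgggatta
Mmp12: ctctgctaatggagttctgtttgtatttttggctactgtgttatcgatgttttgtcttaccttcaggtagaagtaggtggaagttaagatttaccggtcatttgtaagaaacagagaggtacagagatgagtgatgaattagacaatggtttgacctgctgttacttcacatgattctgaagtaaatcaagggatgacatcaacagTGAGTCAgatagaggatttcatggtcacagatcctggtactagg

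The PU.1 core was found in 5 of the 8 windows, those of C1qb, C1qc, Mrc1, Cd68 and the other start of Mmp12, against 23.3% of all 32851 windows of this length. Mrc1 held 3 copies, the nearest of them beginning 35 bases before the start, and C1qb 1 copy at 30 bases. The AP-1 letters were found in 2 of the 8 windows, against 4.46% of all. Cd68 held 2 copies, beginning 24 and 149 bases before its start, and Mmp12 held 1 at 44 bases. The windows of Cybb and Chil3 held neither. These are matches of letters and not measured binding.

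The array values are signals scaled so that every array has the same trimmed mean. A signal under 46.7, the 40th percentile of all scaled values, is called dim below, and differences are given on the scale log2(signal + 15.2). As deposited the trimmed means ran from 102 to 221. For beta-actin the 3' over 5' probe ratio, a sign of RNA breakage when high, lay between 0.957 and 1.09 before MK6. It was 1.49, 1.33 and 3.21 on the 3 MK6 arrays, in replicate order. Of 14 megakaryocyte markers on the array, the CD41 chain Itga2b lay at 977 to 3678 and the platelet chemokine Pf4 at 4183 to 11328. Not all kept such levels: Itgb3 read 262 and 270 at MKP and 143, 56.4 and 15.0 at MK6. For MK6 minus MK3, 7 of the 14 had a positive and 7 a negative difference. Itga2b was 1301 and 979 on the MKP arrays and 977 on MK3 replicate 1, against 2749 on MK3 replicate 2 and 2531 to 3678 on the MK4 and MK6 arrays. All 10 macrophage genes had signals above the dim level on both MK3 arrays.

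The 10 genes did not follow 1 course. A probe set was said to peak at MK3 where its lower MK3 array lay above all other arrays, which held for 5 of the 15, in Mrc1, Msr1, C1qb, C1qc and Adgre1 (2.55% of all probe sets). It was said to persist to MK6 where its lowest MK6 array lay above both MKP arrays, which held for 6 of the 15, in Mrc1, Msr1, Cd68 and Mmp12 (22.4% of all). The Mrc1 probe set and 1 of Msr1 did both. In 5 probe sets, of C1qb, C1qc, Cybb and Chil3, every MK6 array lay below both MKP arrays (17% of all). Nothing is read from these shares, since the genes were picked with their course in view. Without MK3 replicate 2, or without MK4 replicate 2, 8 probe sets would peak at MK3.

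**Figure D1:**
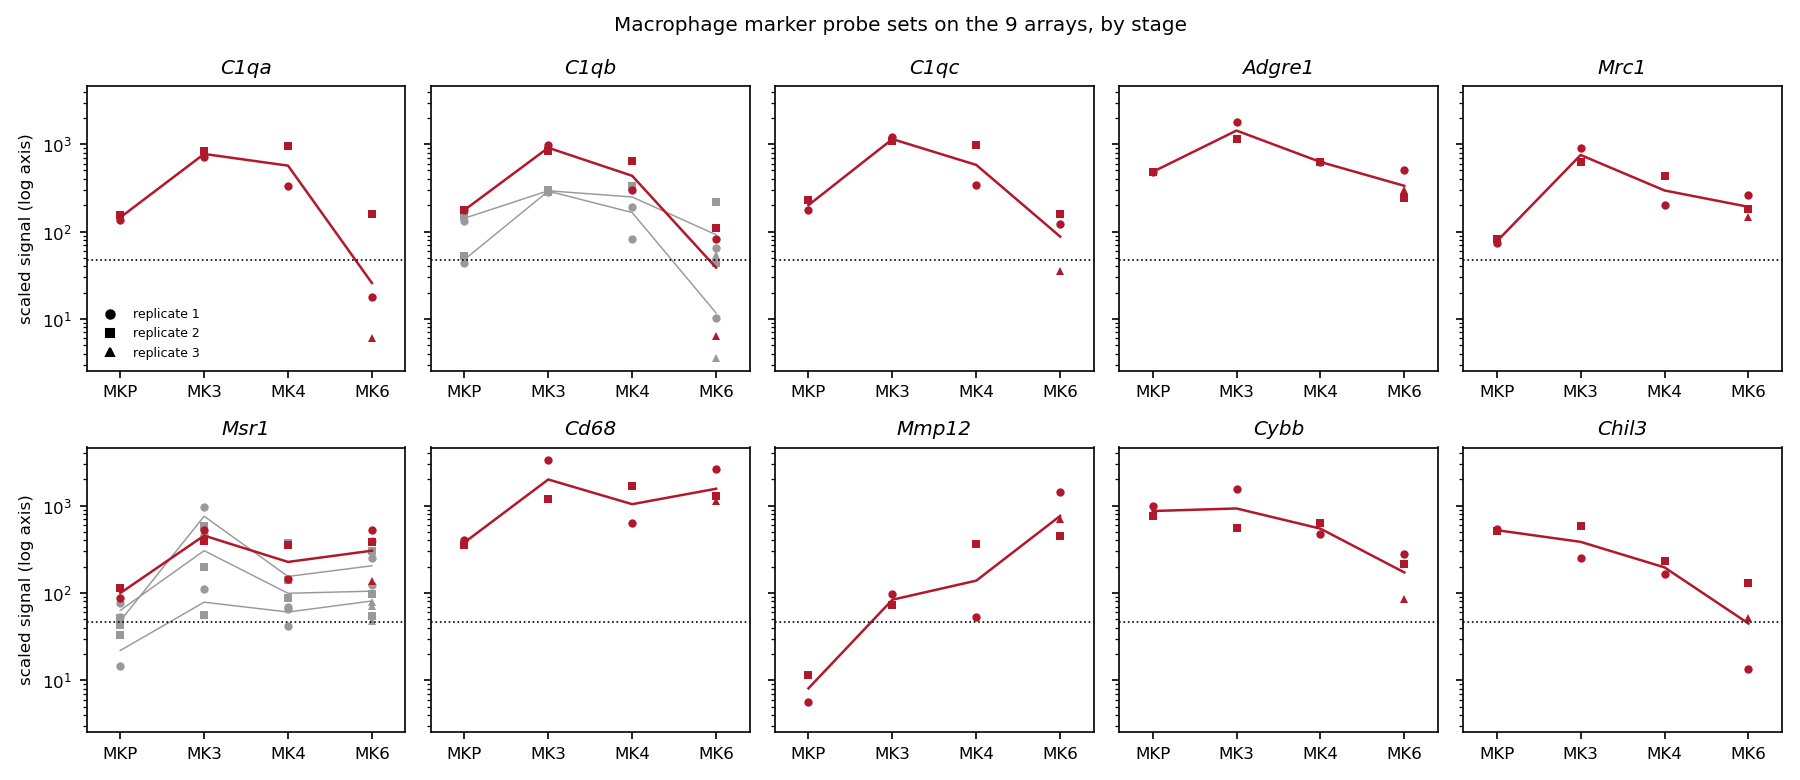
Scaled signal (log axis) of each macrophage marker probe set on the 9 arrays, by stage. Points are arrays, lines join the stage means of log signals, red marks the probe set with the highest mean for the gene, grey the others, and the dotted line the dim level of 46.7. By stage means, the C1q genes and Adgre1 come back at MK6 to or below their MKP level, and Mrc1, Msr1 and Cd68 stay above it. On a grey Msr1 probe set, MK6 replicate 3 (47.5) lies below both MKP arrays (76.7 and 52.2). Mmp12 goes from 5.66 and 11.6 at MKP to 447 or more at MK6.

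Among the uptake receptors, Mrc1, the mannose receptor, was highest at MK3 and stayed above its starting level. Its signal was 73.2 and 81.1 on the MKP arrays, 909 and 622 at MK3, 203 and 428 at MK4, and 261, 183 and 147 at MK6. The MK3 arrays lay above all others and the MK4 and MK6 arrays overlapped, all of them above MKP. Its mean log2 signal was 6.53 ± 0.088 (SD, n = 2) at MKP, 9.58 ± 0.38 (n = 2) at MK3, 8.28 ± 0.72 (n = 2) at MK4 and 7.69 ± 0.39 (n = 3) at MK6. MK3 was thus 3.06 log2 units above MKP, and MK6 was 1.17 above MKP and 1.89 below MK3 (a difference of -1.89).

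Msr1, the class A scavenger receptor that binds modified lipoproteins, was read by 4 probe sets, which disagreed on how far it fell back. On the first it was 53.7 and 42.7 at MKP, 967 and 593 at MK3, 64.8 and 370.1 at MK4, and 396, 305 and 71.3 at MK6. There MK3 stood above every other stage, while MK4 and MK6 each spread widely. On the second, the probe set with the highest mean, it was 86.9 and 114 at MKP, 523 and 394 at MK3, 144 and 359 at MK4, and 531, 387 and 138 at MK6. On this one MK3 and MK6 overlapped. The MK6 minus MK3 difference was -1.78 on the first, -0.54 on the second, -1.38 on the third and 0.037 on the fourth, and MK6 minus MKP was 0.65 to 1.83 over the 4. The third and the fourth ran from 47.5 to 465 and from 14.4 to 124.

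Cd68, a glycoprotein of late endosomes and lysosomes, was at 400.0 and 359 at MKP, 3294 and 1208 at MK3, 637 and 1699 at MK4, and 2651, 1277 and 1126 at MK6. All 7 later arrays lay above both MKP arrays, and among MK3, MK4 and MK6 the arrays overlapped. MK3 was 2.35 and MK6 2.003 log2 units above MKP. The MK6 minus MK3 difference of -0.35 became 0.37 without MK3 replicate 1.

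Adgre1, the adhesion receptor known as F4/80, is the usual surface label of mouse macrophages, and it was above the dim level on every array. It read 481.5 and 481.0 at MKP, 1775 and 1154 at MK3, 621 and 631 at MK4, and 509.9, 243 and 299 at MK6. MK3 lay above the rest and MK4 above MKP, while MKP and MK6 overlapped. The difference was 1.54 for MK3 minus MKP and -2.05 for MK6 minus MK3.

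The genes C1qa, C1qb and C1qc encode the 3 chains of C1q and follow each other on chromosome 4 with no other gene of the RefSeq table between them. By stage means they were highest at MK3 and lowest at MK6, and the MK4 arrays were split. For C1qa, MK4 replicate 2 lay above both MK3 arrays. C1qa was 136 and 155 at MKP, 708 and 844 at MK3, 335 and 963 at MK4, and 17.9, 157 and 6.06 at MK6. C1qc was 175 and 230.1 at MKP, 1206 and 1084 at MK3, 343 and 976 at MK4, and 121, 157 and 35.1 at MK6. On its main probe set C1qb was 177 and 175 at MKP, 991 and 836 at MK3, 298 and 634 at MK4, and 83.1, 110 and 6.30 at MK6. On each of these 3 probe sets both MK3 and both MK4 arrays lay above both MKP arrays. MK3 minus MKP was 2.30, 2.27 and 2.42, and MK6 minus MK3 was -4.00, -3.85 and -3.45, for C1qa, C1qb and C1qc.

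The C1q arrays spread at MK4 and at MK6. C1qa had an SD of 1.05 log2 units at MK4 (n = 2) and 1.59 at MK6 (n = 3), and C1qc 1.04 and 0.944. C1qa was dim on MK6 replicates 1 and 3 and, at 157 on replicate 2, overlapped MKP. Its MK6 minus MKP difference of -1.70 (SD of the MK6 arrays 1.59, n = 3) became 0.11 on replicate 2 alone. The other C1qb probe sets carry a suffix that marks probes shared with other transcripts. They gave 0.97 and 2.28 for MK3 minus MKP and -1.49 and -3.33 for MK6 minus MK3, the same signs as the main one. On both, MK4 replicate 2 (324 and 333) lay above both MK3 arrays, unlike on the main one. On the former, MK6 replicate 2 (219) also lay above both MKP arrays (132 and 152).

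Mmp12, the macrophage elastase that cuts elastin in the matrix, was highest at MK6. Like the C1q genes it was higher at MK3 than at MKP, by 2.07 log2 units, but it did not fall back. Its signal was 5.66 and 11.6 at MKP, 96.6 and 72.7 at MK3, 52.98 and 362 at MK4, and 1418, 447 and 703 at MK6. Each MK6 array lay above every other array, MK3 and MK4 overlapped, and both MKP arrays were dim. Because the MKP signals lie under the 15.2 added before logs, the MK6 minus MKP difference of 5.05 depends on that choice and was 3.88 with the 40th percentile added. MK6 minus MK3, with signals above the dim level on both sides, was 2.98.

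Cybb, the catalytic subunit of the phagocyte NADPH oxidase, and Chil3, a chitinase-like lectin, were highest early and lowest at MK6. Both are also made by granulocyte precursors. Cybb was 1003 and 752 at MKP, 1562 and 552 at MK3, 468 and 636 at MK4, and 278, 213 and 86.3 at MK6. The MK3 arrays enclosed the MKP arrays, and the MK3 minus MKP difference of 0.098 was -0.64 without MK3 replicate 1 and 0.84 without MK3 replicate 2. All MK6 arrays lay below all MK4 arrays, with an MK6 minus MKP difference of -2.22.

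Chil3 was 535 and 515 at MKP, 251 and 592 at MK3, 165 and 235 at MK4, and 13.5, 129 and 51.6 at MK6. Every MK4 array lay below MK3 and every MK6 array below MK4, and MK6 minus MKP was -3.05. A further probe set read Chil3 together with its near-identical relative Chil4 and was left out by the rule for choosing probe sets. It gave 386 and 467 at MKP and 85.0, 194 and 74.7 at MK6, and the probe set of Chil4 alone was dim on every array.

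Neutrophil genes were, like Cybb and Chil3, lower at MK6 than at MKP. Of 14 listed neutrophil markers 12 were on the array, none of them dim on all arrays. Their summed signal was 39782 to 48864 at MKP, 35528 to 36737 at MK3, 25564 to 28300 at MK4 and 6719 to 29272 at MK6. Their part in the levels of Cybb and Chil3 was not tested.

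Hepatocyte genes moved with the MK3 peak. All 8 markers on the array, of 10 listed, were higher on average at MK3 than at MKP, and none was dim on all arrays. Their summed signal was 603 to 650.1 at MKP, 3239 to 4165 at MK3, 499.6 to 1126 at MK4 and 129 to 332 at MK6. Afp, the fetal liver protein alpha-fetoprotein, read 1804 and 1279 at MK3 against 261 and 301 at MKP. The summed signal of 6 eosinophil markers, of 8 listed, was also highest at MK3, at 424 and 718 against 118 to 311 elsewhere, but only through some of its genes. The granule protein genes Prg2 (334 and 208) and Epx (231 and 135) were high on the MK3 arrays, 3 of the 6 markers were dim on both, and Siglecf went from 76.4 and 79.7 at MKP to 22.0 and 33.9 at MK3. Ccr3 was dim on all arrays. The summed signal of 8 erythroid markers, of 11 listed, was 1608.5 and 2255 at MK3 against 1117 to 1586 elsewhere. Of the 7 erythroid markers tested, 4 had a positive and 3 a negative MK3 minus MKP difference. The mast cell and basophil sum overlapped between MK3 (3240 and 2020) and MKP (2293 and 2048). The part of these cells in the macrophage levels was not tested.

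**Figure D2:**
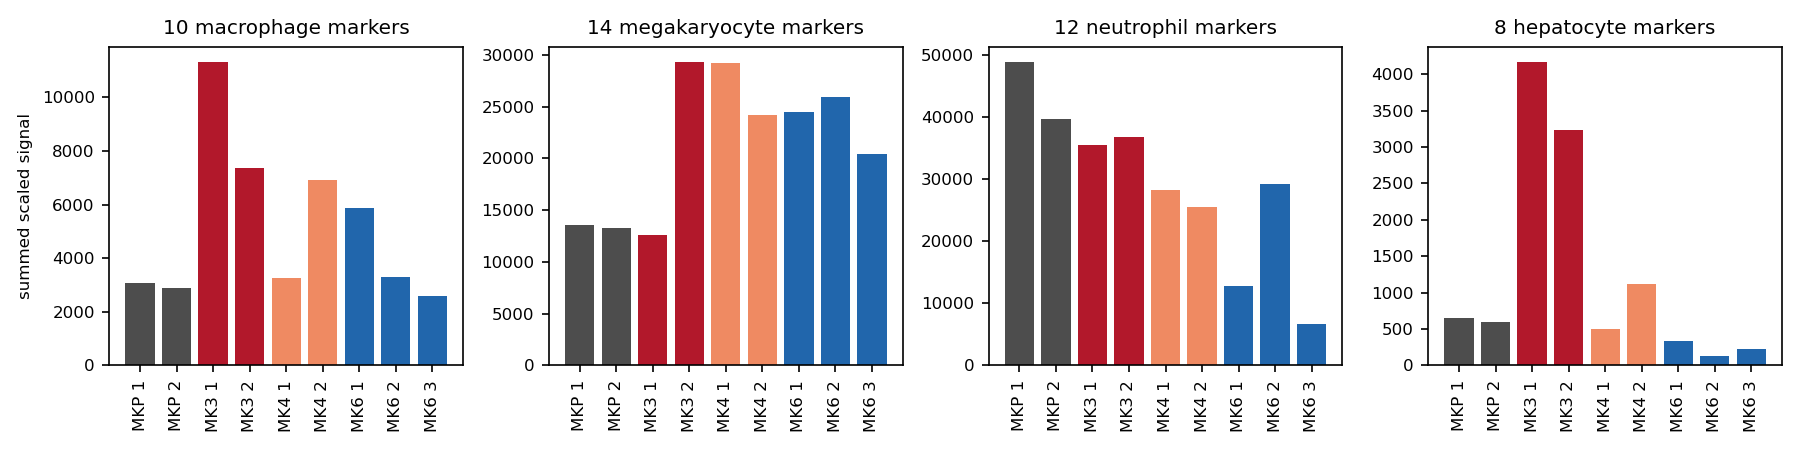
Summed scaled signal of the 10 macrophage markers and of 3 marker lists of other cells on each array, with 1 probe set a gene. The macrophage sum is highest on MK3 replicate 1, at 11316, where the megakaryocyte sum is lowest, at 12609, and the hepatocyte sum is high on both MK3 arrays.

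Arrays of 1 stage differed in the macrophage genes. On MK4 replicate 2 all 15 probe sets read higher than on replicate 1, by a median of 1.05 log2 units, whereas 43.3% of all genes tested were higher there. On MK3 replicate 1 12 of the 15 were higher than on replicate 2 (56.5% of all genes), and on MK6 replicate 1 14 of the 15 were higher than on replicate 3 (57.1%), the array with the actin ratio of 3.21. Between MK6 replicates 1 and 2 the count was 9 of 15 (58.8%), near the share of all genes. Of the 136 other macrophage genes described below, however, 115 were higher on replicate 1 (84.6%). The macrophage sum was 5885 on replicate 1 and 3303 on replicate 2. The MKP arrays gave 8 of 15 (45.9%). Over 14 megakaryocyte markers the summed signal was 12609 on MK3 replicate 1 and 29282 on replicate 2, and 24223 on MK4 replicate 2 and 29221 on replicate 1. The macrophage sums of those arrays were 11316, 7359, 6923 and 3266. In these 2 stages the array with more macrophage signal had less megakaryocyte signal. The MKP arrays did not show this, as replicate 1 was above replicate 2 in both sums (3073 and 2873 macrophage, 13519 and 13303 megakaryocyte). The MK6 arrays were mixed. Replicate 1 was above replicate 2 in the macrophage sum and below it in the megakaryocyte sum (24486 and 25907), but replicate 3 was the lowest of its stage in both (2599 and 20446).

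Array by array, the C1q genes followed each other most closely. Pearson's r, given as a description over arrays that share stages, was 0.949 to 0.985 among the 3 C1q genes on their log2 signals. Adgre1 lay near them (0.676 to 0.836), as did Cybb (0.708 to 0.819). Mrc1 had 0.584 to 0.742 with the C1q genes and 0.761 with Adgre1. Chil3 had 0.57 to 0.697 with the C1q genes and 0.69 with Cybb. Msr1 and Cd68 had 0.906, and each had 0.806 or more with Mrc1. Mmp12 was near Cd68 (0.718) and opposite to Chil3 (-0.868) and Cybb (-0.696).

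**Figure D3:**
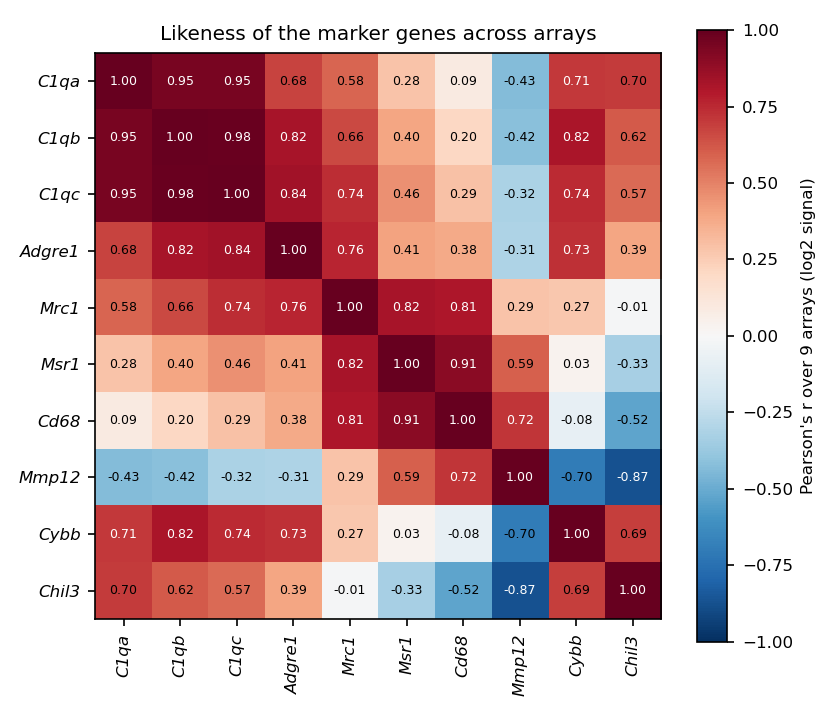
Pearson's r between the log2 signals of each pair of macrophage marker genes over the 9 arrays, with 1 probe set a gene. The C1q genes, Adgre1 and Cybb are positive with each other, as are Mrc1, Msr1 and Cd68, and these sets are not separate (Mrc1 with Adgre1 0.76). Mmp12 is negative with Chil3 at -0.87.

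Of the 9397 genes tested, those whose course over the 9 arrays was most like that of Cd68 were Anxa4 (r = 0.988), Metrnl (0.982) and the lysosomal protease Ctss (0.976). For Mmp12 they were the lectin receptor Clec4d (0.985), the protease Ctsl (0.985) and Il7r (0.979), and for Mrc1 the endocytic adaptor Dab2 (0.972), lipoprotein lipase Lpl (0.962) and Igf1 (0.957). Msr1 was followed by the lysosomal lipase Lipa (0.975), Sdcbp (0.965) and Fabp5 (0.962). C1qb and C1qc shared Bst2 (0.976 and 0.974) and Zbp1 (0.977 and 0.964), both interferon-induced, with Rhog (0.967) and Ms4a6b (0.967) as the remaining ones, and C1qa had H2-T24 (0.982), Rac1 (0.965) and Rab11b (0.953). Adgre1 had Gm20559 (0.972), Srf (0.966) and Pgap6 (0.964), Cybb had Gpsm3 (0.983), Pitpna (0.982) and Adar (0.979), and Chil3 had Bid (0.984), Mrpl19 (0.975) and Srsf9 (0.964). With 9 arrays and 9397 genes, high values are frequent.

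A wider list of 161 other macrophage genes, none of them among the 10, was followed to see how far the same courses extended. Of these 149 were on the array and 136 had signals above the dim level on at least 2 arrays. The list was chosen with earlier results of these data known. Its counts, set beside the shares over all genes, are therefore a description and not independent support. Genes with a limma p below 0.05 after Benjamini-Hochberg adjustment over all 9397 genes tested count as called, and rose or fell is used of called genes. The comparisons share arrays and are given side by side.

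From MKP to MK3, 112 of the 136 genes had a positive difference and the median was 0.80 log2 units, against -0.039 over all genes. Few reached the threshold: 1 rose and 0 fell, with 65 higher and 2 lower at an unadjusted p under 0.05. Over all genes 0.0532% rose and 0% fell. The gene that rose was Lpl, lipoprotein lipase, at 286 and 293 on the MKP arrays and 3653 and 3120 at MK3, a difference of 3.48 ± 0.33 (SE, adjusted p = 0.00412 in limma). The count depended on single arrays. It was 0 without either MKP array or MK3 replicate 1, 6 without MK4 replicate 1 and 5 without MK4 replicate 2. Leaving out MK6 replicate 1 gave 21, and leaving out either other MK6 array gave 2.

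From MK3 to MK4, 104 of the 136 differences were negative (median -0.41, against 0.049 over all genes). In limma 0 rose and 0 fell, with 1 higher and 20 lower at an unadjusted p under 0.05 (0% and 0.0106% of all genes called).

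From MK3 to MK6, 23 of the 136 fell, 16.9%, against 1.75% of all genes, and 1 rose, against 0.724%. The median was -0.51, against 0.15 over all genes. The count of 23 became 0 without MK3 replicate 1, 7 without MK6 replicate 3, and 15 without either MKP array. Falls were found in 7 of the 8 groups that made up the list.

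From MKP to MK6, 15 rose, 11.0%, against 2.76% of all genes, and 11 fell, 8.09%, against 2.94%. The median was 0.24, against 0.13 over all genes. Without scaling the split was 4 rises and 7 falls, and the medians were -0.07 for the list and -0.20 over all genes. Without either MKP array both counts were 0. Without MK6 replicate 2 there were 25 rises, without MK6 replicate 3 there were 9 rises and 5 falls, and without either MK4 array 7 falls.

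**Figure D4:**
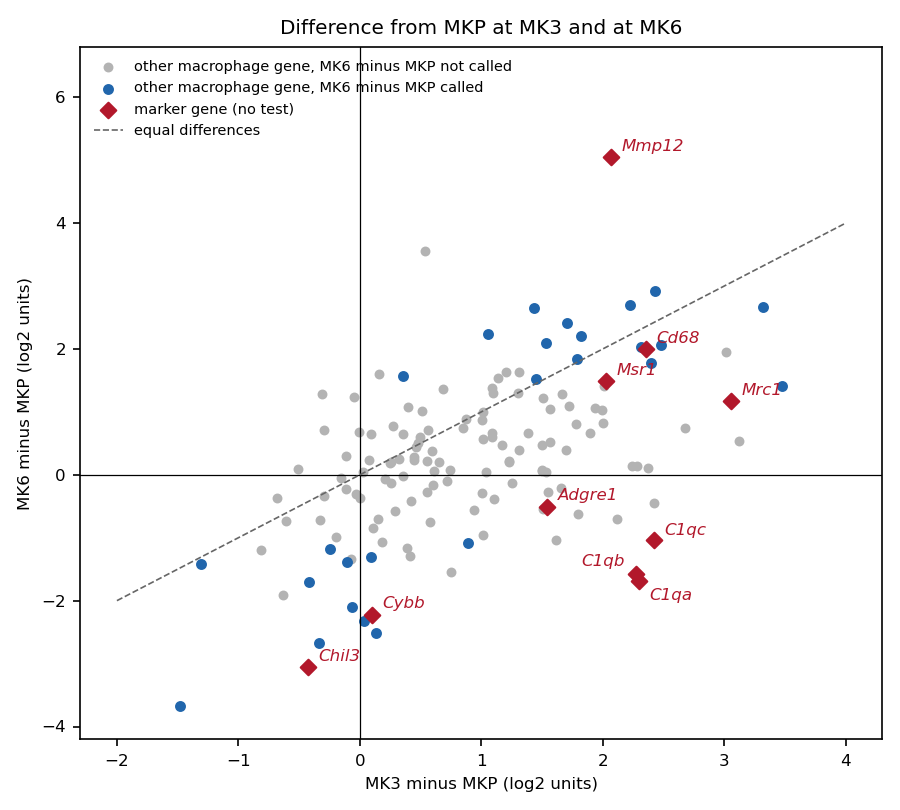
Difference from MKP at MK6 against that at MK3, in log2 units, for 136 other macrophage genes (circles, blue where MK6 minus MKP was called in limma) and the 10 markers (red diamonds, no test). Points under the dashed line were lower at MK6 than at MK3. Mmp12 lies far above the line, Cd68 near it, and Adgre1 and the C1q genes below it with MK6 under MKP.

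Among complement and antibody receptors 4 of 14 fell from MK3 to MK6. Cfb, a complement protease subunit that read 327 and 193 at MK3, was among the 4 (adjusted p = 0.0208 in limma). All its MK6 arrays were dim, at 26.0, 39.3 and 6.18, so no size is given. The high-affinity IgG receptor Fcgr1 was at 143 and 177 at MKP, 1045 and 755 at MK3, and 237, 184 and 116 at MK6 (-2.27 ± 0.42, adjusted p = 0.0208 in limma). The anaphylatoxin receptor C5ar1 fell by 2.04 from MK3 and by 2.10 from MKP. It read 33.1, 19.3 and 59.9 at MK6, partly dim, so these sizes are uncertain. The 1 gene that rose from MK3 was Fcgr2b, the inhibitory IgG receptor, at 1.59 ± 0.35. That call was lost when any MKP, MK3 or MK4 array or MK6 replicate 3 was left out, and with no filter, no trend, no scaling, quantile normalization or the mean of probe sets, while the difference stayed positive. From MKP to MK6 0 of the 14 rose and 2 fell in limma, with 3 higher and 2 lower at an unadjusted p under 0.05. C3ar1, the receptor for C3a, had 2.01 for MK3 minus MKP and was not called.

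Scavenger, lectin and engulfment receptors had more rises than falls between MKP and MK6, with 6 and 1 among 22. Cd36, a receptor for oxidised lipoproteins that platelets also carry, read 102 on both MKP arrays and 555 to 1366 at MK6 (2.92 ± 0.41, adjusted p = 0.00582 in limma). Clec4d rose by 2.23 and Clec4n by 2.20, both lectin receptors, as did Mertk (2.07) and Mfge8 (2.03), which serve the engulfment of dying cells, and Lgals3 (1.52). Axl, related to Mertk, peaked with the C1q genes at 1640 and 699 on the MK3 arrays and fell by 2.42 ± 0.45 to MK6. Marco had 0.24 and Siglec1 0.45 for MK6 minus MKP, neither called, and Cd163 was dim on all arrays.

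Of 5 partners of Cybb in the oxidase, 2 fell from MKP to MK6: Ncf1, a cytosolic subunit, at 927 and 740 on the MKP arrays and 198, 163 and 46.03 at MK6 (-2.67 ± 0.47, adjusted p = 0.0122 in limma), and the GTPase Rac2 (-1.39). Cyba, the membrane partner of Cybb, had 0.069 and Ncf4 -0.36, neither called. The neutrophil sums given above were lower at MK6 than at MKP, as were Ncf1 and Rac2. Within MK6 the neutrophil sum was highest on replicate 2 (29272), as was Rac2 (1486), whereas Ncf1 was highest on replicate 1. Their part in these genes was not tested.

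In the group of matrix proteases, inhibitors and chitinase-like genes, to which Mmp12 and Chil3 belong by function, 0 of 9 rose and 1 fell between MKP and MK6 in limma. With an unadjusted p under 0.05, 1 was higher and 2 were lower. The fall was that of Chil1, a relative of Chil3 (-1.17 ± 0.30). Timp2, a metalloprotease inhibitor, had 1.41 (adjusted p = 0.0544 in limma) and Mmp9 -1.20 (adjusted p = 0.0815).

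Growth factor receptors and transcription factors of macrophages numbered 16. From MK3 to MK6 4 fell and 0 rose, and from MKP 2 fell and 0 rose, with 0 and 1 higher at an unadjusted p under 0.05 in limma. Csf1r, the receptor for the macrophage growth factor, was at 2099 and 1505 at MKP, 5200 and 2494 at MK3, and 1331, 724 and 782 at MK6 (-1.97 ± 0.36 from MK3). Tfec, a transcription factor of the Mitf family, fell by 2.36 and Csf2ra by 1.70 over the same step. Tfec was dim on MK6 replicate 1, at 36.4. Spi1, which encodes PU.1, fell by 1.40 from MK3 and by 1.31 from MKP. Irf8 had -0.76 and Cebpb 0.17 from MK3, neither called.

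Lysosomal and lipid-handling genes had the largest median of the 8 groups between MKP and MK6, where 7 of 22 rose and 0 fell in limma (0 lower at an unadjusted p under 0.05). All 22 of their differences were positive, with a median of 1.04 (0.68 without scaling). Gpnmb, a lysosomal membrane glycoprotein, rose by 2.70 ± 0.41, the protease genes Ctsl by 2.65, Ctsk by 2.41 and Ctss by 1.85, and the cholesterol exporter Abca1 by 2.10. The MKP signals of Ctsk, 48.3 and 36.7, lay near or under the dim level. Ctsl, like Mmp12, was highest at MK6, with 1362 and 1396 at MKP, 4256 and 3320.1 at MK3 and 12863, 5913 and 8791 at MK6. Lpl and the fatty acid binding protein gene Fabp4 fell back from MK3 by 2.07 and 2.59. Apoe had 0.66 and Lyz2 0.20 for MK6 minus MKP, neither called.

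Of 23 chemokines, cytokines and innate sensors, 0 rose and 5 fell from MK3 to MK6, with 2 higher and 12 lower at an unadjusted p under 0.05 in limma. From MKP 0 rose and 1 fell, with 8 higher and 5 lower. Ccr2, the receptor that draws monocytes to inflamed tissue, fell by 3.67 ± 0.47 from MKP, from 499 and 527 to 11.8, 58.3 and 21. Ly86, a partner of a Toll-like receptor relative, fell by 2.66 from MK3, and the chemokine Ccl3 by 2.29. Like those of Ccr2, the MK6 signals of Ly86 were partly dim, at 65.5, 32.8 and 31.0, so the sizes for Ccr2 and Ly86 are uncertain. Ccl6 had 1.64 for MK6 minus MKP. Tnf was dim on all MK6 arrays, at 24.9, 22.1 and 12.6, so no size is given. Neither was called.

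Among the remaining 25 macrophage genes, 5 fell from MK3 to MK6, and 2 rose and 2 fell from MKP. Aif1, an actin-binding protein of macrophages, followed the C1q course at 59.4 and 77.9, then 395 and 305, then 62.2, 41.4 and 15.9 (-2.82 ± 0.38 from MK3). Its MK6 signals were partly dim, so this size is uncertain. Cd5l, a secreted protein of tissue macrophages, rose from 70.9 and 72.7 at MKP to 464, 769.8 and 432 at MK6 (2.67 ± 0.49). Hmox1, the enzyme that breaks down heme, rose by 1.78, and Lst1 fell by 2.52. Trem2 was dim on both MKP arrays, at 41.3 and 27.4, so no size is given from MKP. It read 656 and 219 at MK3 and 370, 187 and 71.4 at MK6. Tyrobp, its adaptor, had 0.72 for MK3 minus MKP and -0.10 for MK6 minus MKP. Neither gene was called in these comparisons.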

How the data were processed

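Biotin-labelled RNA was hybridised to MOE430A arrays, 1 array a sample. The deposited values are linear probe set intensities from MAS5, which the submitters' processing notes name as the authors' tool. Its version and settings are not given in the sources here. Each array was scaled to a trimmed mean of 161 (2% off each end). Values were taken as log2(signal + 15.2), the 20th percentile. Probe sets above 46.7 on at least 2 arrays were kept and each gene took its probe set of highest mean, giving 9397 genes. Symbols came from the platform annotation through the RefSeq gene table. All 9 arrays entered 1 limma model (limma 3.58.1, R 4.3.3, intensity trend, 5 residual degrees of freedom) with a mean per stage. It was also run on simulated data in which genes varied independently and shifts were placed in MK6 alone. Such data cannot show how the p-values behave when many genes of an array shift together. The scaling to a common trimmed mean leaves out any change in total RNA per cell. The number of arrays limits the precision, and no detection calls were used. Probe sets naming several genes were left out.

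The macrophage genes, the 8 groups of other macrophage genes and the cell marker lists were chosen with earlier results of these data known. Genes named from each group were the 3 largest called differences and up to 2 uncalled members. Further ones (Fcgr2b, Clec4n, Mertk, Mfge8, Lgals3, Spi1, Ctsk, Ctss, Abca1, Fabp4, Hmox1 and Cd163) were added after their values were seen. The 3 most similar genes by Pearson's r are named for each marker. Alternatives were 2 pseudocounts, 2 filters, 2 scalings, the mean of probe sets, no intensity trend and each array left out in turn. Leaving out MK6 replicates 1 and 3 together was added after seeing the data.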

Additional observations from a re-analysis of the deposited data

How the results depend on the processing

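No paired analysis was possible because the titles give no replicate numbers shared between stages. With single arrays left out, marker probe sets peaking at MK3 numbered 5 to 8 and those persisting to MK6 6 to 7. Over the same settings the other macrophage genes gave 0 to 21 rises for MK3 minus MKP, 0 to 3 rises and 0 to 34 falls for MK6 minus MK3, and 0 to 25 rises and 0 to 12 falls for MK6 minus MKP. The 1 rise of MK3 minus MKP was 2 with the mean of probe sets, with no filter or with no trend, 5 with no scaling, 6 with the pseudocount at the 40th percentile and 11 without MK6 replicates 1 and 3. The 1 rise of MK6 minus MK3 was 0 without any 1 of the MKP, MK3 or MK4 arrays or MK6 replicate 3, and with no filter, no trend, no scaling, quantile normalization, the mean of probe sets or without those 2 arrays. For MK6 minus MKP the rises were 4 with no scaling and 1 without those 2 arrays, and the falls 6 with no trend, 7 with no scaling and 3 without those 2 arrays, which also gave 5 falls for MK6 minus MK3 and 1 fall for MK4 minus MK3. Over all genes, MK6 minus MKP gave 259 rises and 276 falls, 56 and 144 with no scaling, 20 and 29 without those 2 arrays, and 0 falls without MKP replicate 1. MK6 minus MK3 gave 68 and 164, and 6 and 29 without those 2 arrays. None of the 51 called results of the other macrophage genes changed sign in any setting. Of 840 values of the marker differences under alternatives, 29 moved by more than 1 SD and 18 changed sign. The cause of these changes was not tested. With 2 or 3 arrays a stage, small differences could not be resolved, and dim signals have no reliable fold.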

Other observations

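Arg1, the arginase of alternatively activated macrophages, differed widely between arrays of a stage. It read 50.6 and 43.04 at MKP, 197 and 22.8 at MK3, 98.01 and 1997 at MK4, and 2688, 371 and 350.5 at MK6, and its MK6 minus MKP difference was 3.55 ± 1.16 (SE, adjusted p = 0.0999 in limma). Its highest arrays, MK4 replicate 2 and MK6 replicate 1, are also those with the highest macrophage sums of their stages, at 6923 and 5885. This gene was chosen after its values were seen.

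Of 8 monocyte markers on the array, of 10 listed, 3 fell from MKP to MK6 and 0 rose in limma (1 higher at an unadjusted p under 0.05), with a median difference of -0.97. Over all genes 2.94% fell and 2.76% rose. From MK3 to MK6 4 of the 8 fell and 0 rose, against 1.75% and 0.724% of all genes. For MK3 minus MKP 5 differences were positive and 3 negative. In limma 0 of these were called, with 3 higher and 1 lower at an unadjusted p under 0.05. Of 7 osteoclast markers on the array, of 9 listed, 5 were tested, while Calcr and Ocstamp were dim on all arrays. From MKP to MK6 1 of the 5, Ctsk, rose, against 2.76% of all genes. Of 9 dendritic cell markers tested 0 were called by limma in any of the 4 comparisons, with 3, 0, 0 and 2 higher and 0, 0, 2 and 0 lower at an unadjusted p under 0.05 for MK3 minus MKP, MK4 minus MK3, MK6 minus MK3 and MK6 minus MKP.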
